A study of Rattus norvegicus with 6 samples.

Results

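The EGF family ligands and the ERBB receptors were followed in dorsal skin wounds of diabetic rats. The members are the rows of the deposited gene table whose symbol is Hbegf, Areg, Ereg, Tgfa, Btc, Epgn, Nrg1, Egfr, Erbb2 or Erbb3, and all 10 were found among its 18825 genes. Of the 10, 8 had enough counts to be tested, and Ereg and Btc did not. None of the 8 passed the test over all genes. In counts scaled by library totals, each adjusted with a TMM factor, the groups did not overlap for 2 of the 8, against 22.9% of all genes tested. These were Tgfa, which was higher in all 3 treated wounds, and Hbegf, which was lower in all 3. Erbb2 overlapped in these scaled counts and separated the groups in values scaled by gene length and library.

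The animals were male Sprague–Dawley rats made diabetic with a diet high in fat and sucrose and then streptozotocin, which kills beta cells of the pancreas, and they carried wounds through the full thickness of the dorsal skin. The control group had 3 untreated wounds. The other group had 3 wounds treated with DST-MNs, which are microneedles that hold spheroids of dental pulp stem cells regulated by spermidine, a polyamine, and by the growth factor TGF-β3. Both groups share the diabetes and the wound. The 2 groups therefore differ by the whole device, and needles without cells were not analysed here. The labels call the 3 samples of a group biological replicates and give no age of the animals and no day of collection.

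EGF family ligands are made as membrane-bound precursors and are cut loose by proteases of the ADAM family, mainly ADAM17. Heparin-binding EGF (Hbegf), amphiregulin (Areg), epiregulin (Ereg), TGF-α (Tgfa), betacellulin (Btc) and epigen (Epgn) bind the EGF receptor, and neuregulin 1 (Nrg1) binds ERBB3 and ERBB4. ERBB2 has no ligand of its own and ERBB3 has a weak kinase, so both signal as partners in dimers. In skin the EGF receptor is known for driving the proliferation and migration of keratinocytes, the epithelial cells that close a wound.

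Library totals ran from 12545206 to 13818548 estimated counts. Summed over the 7 fibroblast markers, levels were 17851 to 23726 TPM (transcript counts scaled by gene length and library) in the 6 libraries, with none of the markers at 0. The median log2 change of these 7 after treatment was -0.52. Of the 7, 0 passed over all genes and 1 had an unadjusted p below 0.05. Epithelium varied far more. The 7 listed pan-epithelial markers, which include the cadherin Cdh1 and Epcam, summed to 3.30 to 7.78 TPM in controls and 29.1 to 157 TPM in treated wounds. None of the 6 that were tested passed over all genes, and all 6 had an unadjusted p below 0.05, against 16.7% of all genes. In control 2, 2 of these 7 markers were at 0, Epcam among them. Hair follicle transcripts were concentrated in DST-MNs replicate 1, where 8 markers summed to 795 TPM, and to 1.74 to 17.6 TPM in the other 5 libraries. Muscle transcripts were nearly missing from control 2, with 0.43 TPM summed over 5 markers against 2037 to 3044 TPM in control 1 and the treated wounds and 94.8 TPM in control 3.

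**Figure D1:**
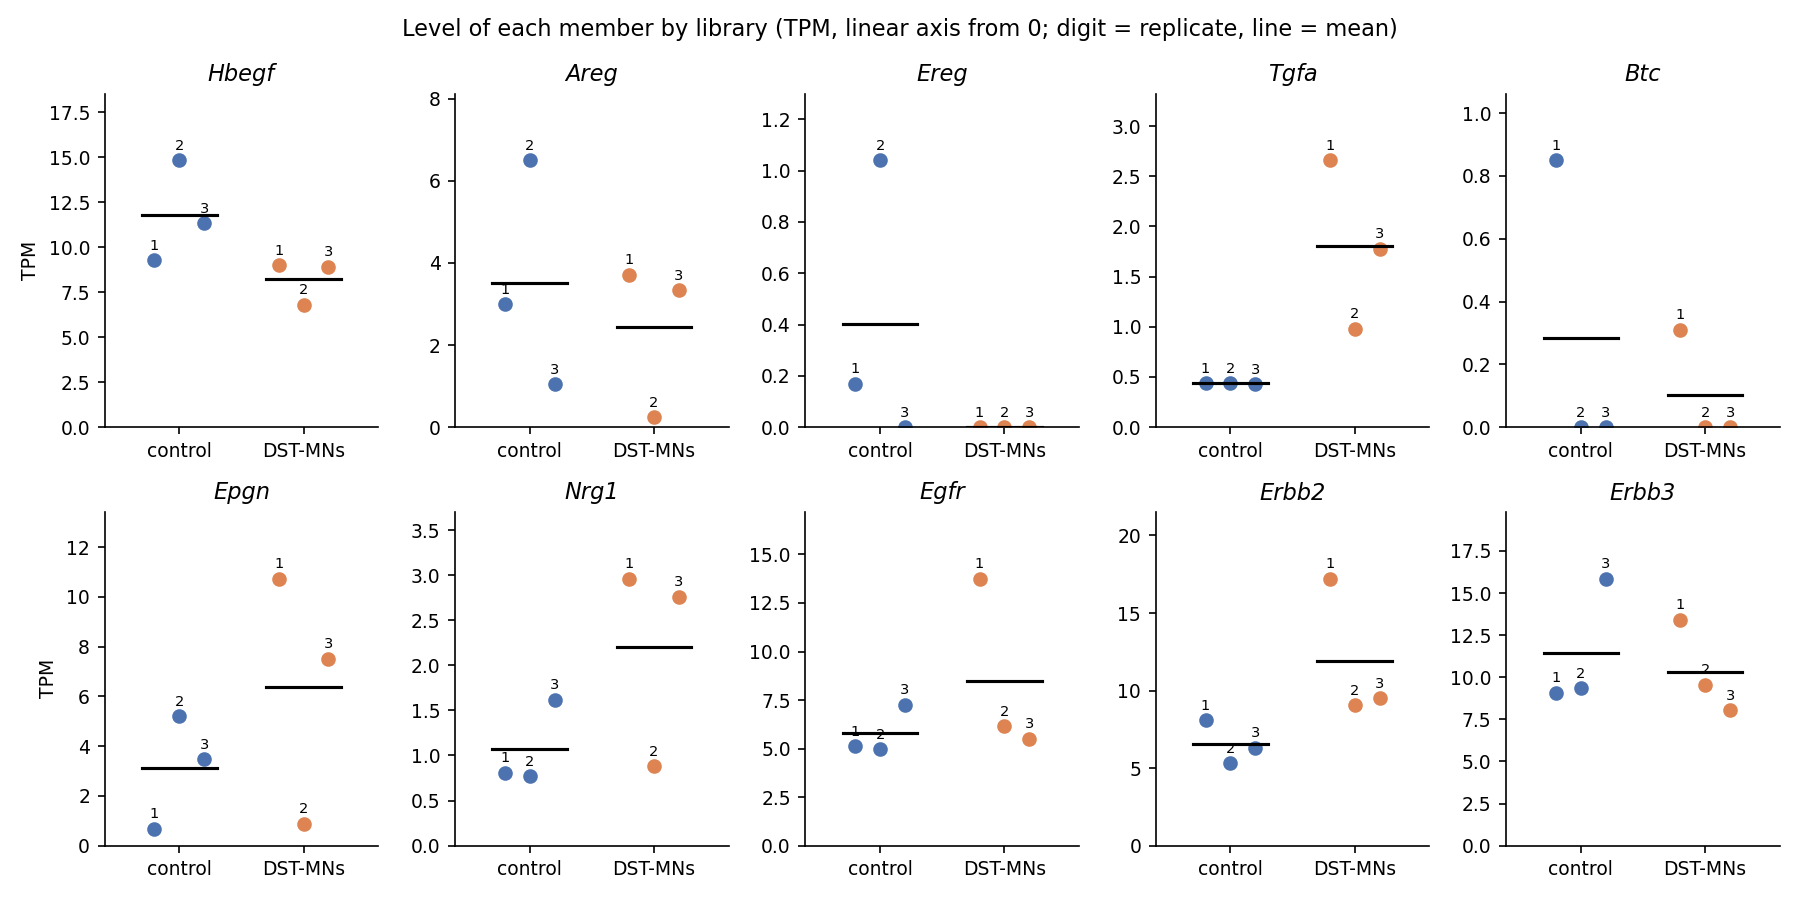
Level of each of the 10 members in TPM, on a linear axis from 0. Points are libraries with the replicate number above, and lines are the means of 3. Tgfa sits at 0.43 to 0.44 TPM in the controls and at 0.98 to 2.66 TPM after treatment, and Hbegf sits at 9.27 to 14.83 and 6.80 to 9.01 TPM.

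The comparison asked whether transcripts of the family differed between treated and untreated diabetic wounds. Of the 8 members tested, 0 passed edgeR's quasi-likelihood test at a Benjamini-Hochberg adjusted p below 0.05, while 0.776% of all 14427 genes tested did. At an unadjusted p below 0.05 there were 3 members, where the share of all genes was 16.7%. Tgfa and Erbb2 were higher, against 9.80% of all genes, and Hbegf was lower, against 6.88%. The Wald test of DESeq2 called 1 member, Tgfa, against 7.06% of all genes, or 4.34% counting those that were higher. Calls by limma-voom numbered 0 of 8 against 0.658%, and by a limma trend test on log2(TPM + 1) 0 against 0.982%. The libraries of the groups did not overlap, in CPM (counts scaled to a common library total), for 2 of the 8 against 22.9% of all genes. These were Tgfa, where 12.9% of all genes were higher without overlap, and Hbegf, where 1448 of the 14427 were lower.

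Tgfa (gene ID 24827) encodes TGF-α, a ligand that keratinocytes make and respond to. It was listed at 0.44, 0.44 and 0.43 TPM in controls 1, 2 and 3, and at 2.66, 0.98 and 1.78 TPM in DST-MNs 1, 2 and 3. The 3 controls were alike and every treated wound stood above them. These levels rest on 17 to 19 counts in a control and on 105, 38 and 64 counts in DST-MNs 1, 2 and 3. The fitted log2 change was 1.84 (SE 0.40, 95% interval 0.88 to 2.79, adjusted p = 0.112 by the quasi-likelihood test of edgeR, Benjamini-Hochberg over all genes), or 3.58-fold. With DESeq2 the adjusted p was 0.00896. With 1 library left out in turn the log2 change ran from 1.47 to 2.14 and the adjusted p from 0.0777 to 0.363. The order of the treated libraries, DST-MNs 1 above 3 above 2, was also that of the summed pan-epithelial markers, at 157, 45.9 and 29.1 TPM. The controls, at 7.78, 3.30 and 7.64 TPM of those markers, had nearly the same Tgfa. Whether the amount of epithelium had a part in the Tgfa values was not tested. In a bulk sample, more cells of a type and more RNA per cell cannot be told apart.

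Hbegf (25433) encodes heparin-binding EGF, a ligand released early in wounds by macrophages and keratinocytes. It was the ligand with the highest mean level in both groups. Its level was 9.27, 14.83 and 11.32 TPM in controls 1, 2 and 3, against 9.01, 6.80 and 8.92 TPM in DST-MNs 1, 2 and 3. The groups did not overlap, although control 1 and DST-MNs 1 lay only just apart. The log2 change was -0.66 (SE 0.25, 95% interval -1.26 to -0.06, adjusted p = 0.263), and -0.80 to -0.46 with 1 library left out. Unlike Tgfa, its highest library was control 2, the one with the fewest pan-epithelial transcripts. Macrophage markers, 6 of 6 measured, summed to 364 to 496 TPM in controls and 444 to 681 TPM after treatment, and their part in the Hbegf values was not tested.

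The ratio of Hbegf to Tgfa, set up after the values were seen, was 21.1, 33.7 and 26.3 in controls 1, 2 and 3. In DST-MNs 1, 2 and 3 it was 3.39, 6.94 and 5.01. Both are TPM, so the ratio compares levels per length. Tgfa made up 1.57% to 3.06% of the summed EGF receptor ligands in a control and 8.26% to 11.0% in a treated wound.

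Areg (29183) and Epgn (289515) varied more between libraries than between groups. Areg encodes amphiregulin, made by keratinocytes and by several immune cells, and Epgn encodes epigen, a low-affinity ligand of epithelia. Betacellulin, amphiregulin, epiregulin and epigen are listed one after another on chromosome 14 in the RefSeq table of the assembly GRCr8. Areg and Epgn are the members with the widest range over the 6 libraries, and their upstream sequences are therefore shown, 250 bases before the start from RefSeq, both on the minus strand of GRCr8, at chr14:17265642-17265891 for Areg and chr14:17369001-17369250 for Epgn. Capitals mark matches on either strand to the cyclic AMP response element TGACGTCA or the TATA box TATAAA.
Areg: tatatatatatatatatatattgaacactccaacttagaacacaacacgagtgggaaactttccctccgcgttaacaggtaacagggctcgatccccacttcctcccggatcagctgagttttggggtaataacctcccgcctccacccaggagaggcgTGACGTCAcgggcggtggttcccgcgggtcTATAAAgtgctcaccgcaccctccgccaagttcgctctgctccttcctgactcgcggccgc
Epgn: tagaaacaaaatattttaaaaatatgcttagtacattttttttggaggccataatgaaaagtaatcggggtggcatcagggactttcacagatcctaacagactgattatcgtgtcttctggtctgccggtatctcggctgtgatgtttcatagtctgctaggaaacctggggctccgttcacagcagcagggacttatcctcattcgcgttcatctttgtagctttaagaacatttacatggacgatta
The Areg window holds 1 cyclic AMP response element, which begins 91 bases before the start, and 1 TATA box, which begins 61 bases before it. The Epgn window holds neither, and neither window holds the AP-1 motif TGANTCA. Among 33469 RefSeq windows of this length, 1.59% hold TGACGTCA, 12.9% TATAAA and 6.34% TGANTCA. The 2 windows also differ in base composition, with 54.4% G and C for Areg and 41.2% for Epgn. Of the 10 members, 7 had an entry, and of these only Areg matched any of the 3 motifs. A match describes the letters and is no measured site.

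Areg stood at 2.99, 6.50 and 1.04 TPM in controls 1, 2 and 3 and at 3.71, 0.24 and 3.34 TPM in DST-MNs 1, 2 and 3. The groups overlapped, and the lowest library, DST-MNs 2, had 2 counts. The log2 change was -0.68 with a 95% interval from -2.93 to 1.56 (adjusted p = 0.752), and it turned to 0.10 without control 2. Epgn stood at 0.68, 5.21 and 3.47 TPM in controls 1, 2 and 3 and at 10.73, 0.89 and 7.52 TPM in DST-MNs 1, 2 and 3. Its 2 highest libraries were treated, yet DST-MNs 2 lay below 2 of the controls. The log2 change was 0.89 with a 95% interval from -1.36 to 3.15 (adjusted p = 0.676). DST-MNs 2 was also the treated wound with the least wound-edge keratin: 5 markers of that list, Krt6a, Krt16 and Krt17 among them, summed to 26.2 TPM there and to 843 and 228 TPM in DST-MNs 1 and 3. In controls 1, 2 and 3 the same sum was 23.2, 3.00 and 29.6 TPM, so control 2 had the highest Areg and Epgn of the controls and the fewest wound-edge transcripts. The part of these cells in the values was not tested.

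Ereg and Btc were close to the limit of detection. Ereg (59325), which encodes epiregulin, had 1, 6 and 0 counts in controls 1, 2 and 3 and 0 counts in the 3 treated wounds. A count of 0 over the treated group allows up to 0.0734 CPM, a floor of 3 counts. The 7 control counts, scaled by depth, stood 2.47-fold above that floor. This ratio leaves out the counting error of the control counts and the spread between wounds, so it is no lower bound. Most of the control counts came from control 2. Btc (64022), which encodes betacellulin, had 3, 0 and 0 counts in controls, against 1, 0 and 0 counts in treated wounds, so no difference could be detected at this depth.

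**Figure D2:**
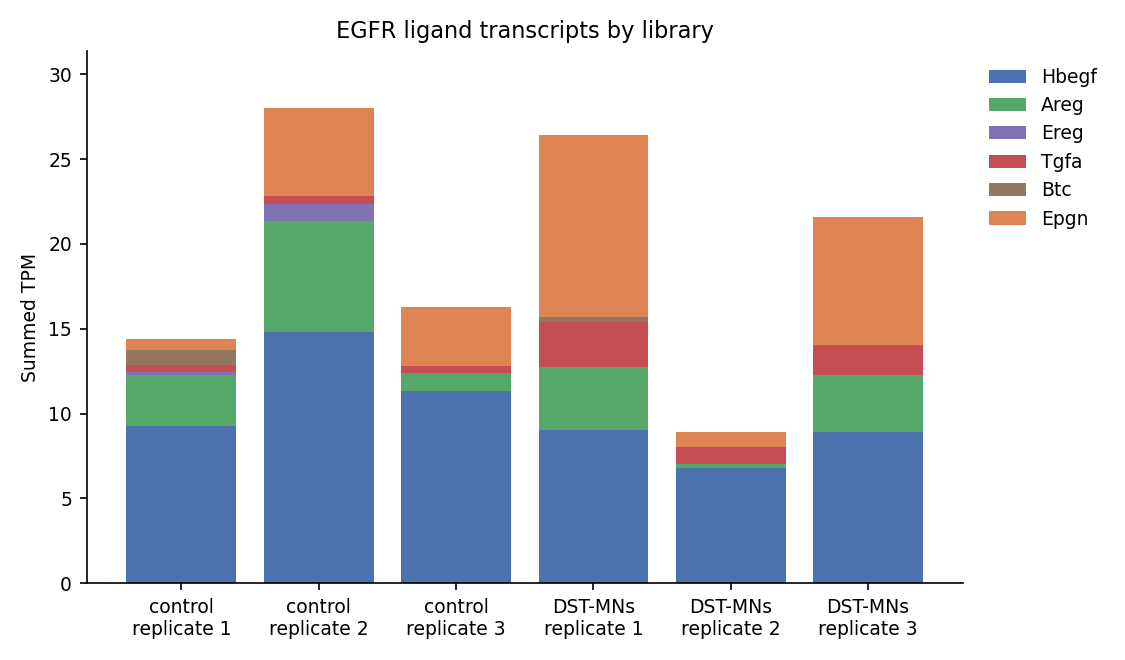
Summed TPM of the 6 EGF receptor ligands in each library, with 1 colour for each ligand, from 0. Hbegf is the largest part in 5 libraries, and Epgn is the largest in DST-MNs replicate 1, at 40.6% of the sum.

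Summed over the 6 ligands of the EGF receptor, levels were 14.4, 28.0 and 16.3 TPM in controls 1, 2 and 3, against 26.4, 8.91 and 21.6 TPM in DST-MNs 1, 2 and 3. The groups overlapped fully, with the lowest sum in a treated wound and the highest in a control. Hbegf took 64.4%, 52.9% and 69.6% of it in controls 1, 2 and 3, against 34.1%, 76.3% and 41.4% in DST-MNs 1, 2 and 3. Epgn took 4.72% to 21.3% in controls and 9.99% to 40.6% in treated wounds. Both shares overlapped between the groups, as the sum did.

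Nrg1 (112400), the ligand of ERBB3 and ERBB4 that nerves, endothelium and fibroblasts make, stood at 0.81, 0.77 and 1.62 TPM in controls 1, 2 and 3. It stood at 2.96, 0.88 and 2.76 TPM in DST-MNs 1, 2 and 3. DST-MNs 1 and 3 lay above every control, and DST-MNs 2 lay among them. The log2 change was 0.84 with a 95% interval from -0.49 to 2.17 (adjusted p = 0.492), and 0.55 to 1.38 with 1 library left out.

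Among the receptors, Erbb2 had more TPM in every treated wound, Egfr was high in a single treated wound, and Erbb3 showed no separation. Egfr (24329), the receptor of the 6 ligands above, stood at 5.13, 4.96 and 7.26 TPM in controls 1, 2 and 3 and at 13.75, 6.14 and 5.50 TPM in DST-MNs 1, 2 and 3. DST-MNs 1 stood apart and the other treated wounds lay within the range of the controls. The log2 change of 0.40 (95% interval -0.38 to 1.19, adjusted p = 0.576) turned to -0.072 without DST-MNs 1. That library had the most hair follicle and keratinocyte transcripts. It was also highest in the summed macrophage, mast cell and adipocyte markers, at 681, 53.7 and 831 TPM. Of the mast cell sum, 31.8 TPM came from Cpa3. Cpa3, Kit and Fcer1a were highest in that library, while Tpsb2 was lowest there and Hdc lay below every control. The part of any of these cells in the Egfr values was not tested.

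Erbb2 (24337) encodes the partner receptor without a ligand. It stood at 8.07, 5.30 and 6.31 TPM in controls 1, 2 and 3 and at 17.21, 9.07 and 9.52 TPM in DST-MNs 1, 2 and 3. In TPM every treated wound was above every control, while in CPM control 1 lay above DST-MNs 2 by a small margin. Before scaling, these libraries had 385 and 394 counts, and their TMM factors were 0.981 and 1.03. The log2 change was 0.70 (SE 0.27, 95% interval 0.05 to 1.35, adjusted p = 0.273), and 0.40 without DST-MNs 1. Basal keratinocyte markers, 9 of 9 measured, summed to 65.8 to 230 TPM in controls and to 3902, 361 and 1301 TPM in DST-MNs 1, 2 and 3, with Krt15 at 0 in control 2. Their part in the Erbb2 values was not tested.

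Erbb3 (29496) encodes a neuregulin receptor. It stood at 9.09, 9.34 and 15.85 TPM in controls 1, 2 and 3 and at 13.42, 9.56 and 8.03 TPM in DST-MNs 1, 2 and 3. The highest library was control 3 and the groups overlapped. The log2 change was -0.29 (95% interval -0.87 to 0.30, adjusted p = 0.595). Schwann cells, which depend on ERBB3, had 6 of 6 markers measured, and these summed to 93.7, 51.0 and 56.9 TPM in controls 1, 2 and 3 and to 71.8, 116 and 149 TPM in DST-MNs 1, 2 and 3. The pan-epithelial and basal keratinocyte sums given above were higher in every treated wound than in any control. The part of Schwann cells or of epithelium in the Erbb3 values was not tested.

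The ratio of Erbb2 to Erbb3, also set up after the values were seen, was 0.89, 0.57 and 0.40 in controls 1, 2 and 3, against 1.28, 0.95 and 1.19 in DST-MNs 1, 2 and 3. The groups did not overlap in this ratio of TPM levels. Nor did they in the ratio of Egfr to Erbb3, at 0.46 to 0.56 in controls and 0.64 to 1.02 in treated wounds. How often ratios of other genes separate the groups was not tested. In order of mean level, the controls ran Hbegf, Erbb3, Erbb2, Egfr, Areg, Epgn, Nrg1, Tgfa, Ereg and Btc, from 11.8 to 0.28 TPM. The treated wounds ran Erbb2, Erbb3, Egfr, Hbegf, Epgn, Areg, Nrg1, Tgfa and Btc, from 11.9 to 0.10 TPM, with Ereg listed at 0. Neighbours in these orders overlapped in their ranges, except Erbb3 above Erbb2 and Nrg1 above Tgfa in the controls and Tgfa above Btc in the treated wounds.

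**Figure D3:**
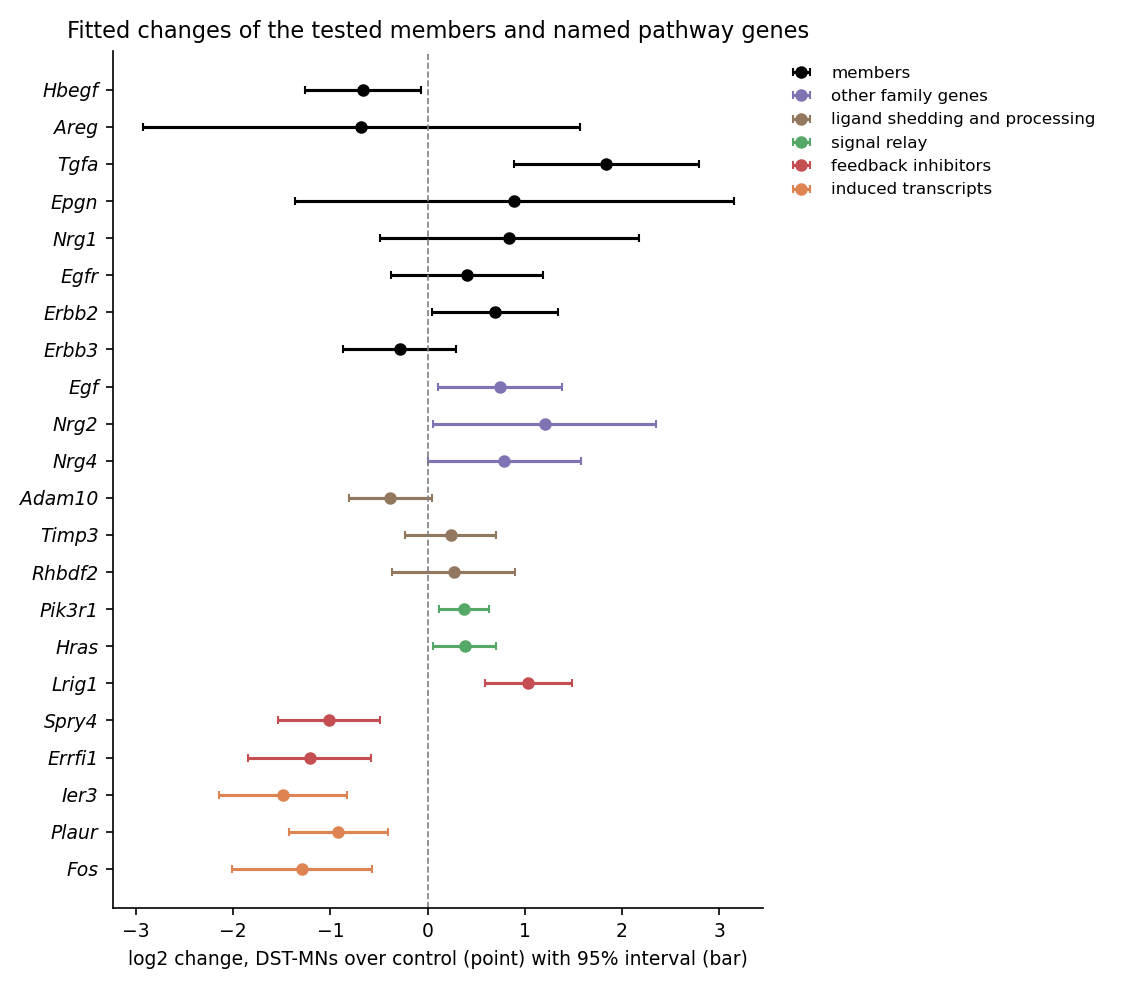
Fitted log2 changes (points) with 95% intervals (bars) for the 8 members tested and for the pathway genes named here, coloured by list. Of the members, Hbegf, Tgfa and Erbb2 have intervals that leave out 0, and no gene shown passed the test over all genes.

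The rest of the family was also measured. Egf, Nrg2 and Nrg4 had positive changes and groups that did not overlap in CPM, where 12.9% of all genes were higher without overlap. Egf (25313) stood at 1.07, 0.70 and 1.14 TPM in controls 1, 2 and 3 and at 1.78, 1.80 and 1.82 TPM in DST-MNs 1, 2 and 3 (log2 change 0.75, SE 0.27, adjusted p = 0.24). Nrg4 (690919), a ligand of ERBB4, had 19, 30 and 24 counts in the controls and 46, 34 and 53 after treatment (log2 change 0.79, adjusted p = 0.297), and Nrg2 (432361) had 7 to 12 and 13 to 39 counts (1.20, adjusted p = 0.283). Erbb4 (59323), the receptor of the neuregulins, had 0 to 2 counts in a control and 3 to 8 in a treated wound and was not tested. None of the 3 tested genes passed with edgeR or DESeq2, and all 3 had an unadjusted p below 0.05, against 16.7% of all genes.

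No gene of the shedding machinery passed. Of 6 genes, 0 passed with edgeR or DESeq2 and 0 had an unadjusted p below 0.05. Their median log2 change was 0.043, against 0.0044 over all genes. Calls by limma-voom and by the trend test on log2(TPM + 1) were 0 in this and in each of the other pathway lists. The 3 with the smallest p were Adam10, a sheddase of betacellulin and EGF (-0.38, adjusted p = 0.341), Timp3, the inhibitor of ADAM17 (0.24, adjusted p = 0.579), and Rhbdf2, a carrier of ADAM17 to the cell surface (0.27, adjusted p = 0.649). Of 25 genes that relay the signal inside the cell, such as adaptors, RAS, RAF, MAP kinase and PI3 kinase genes, edgeR called 0, DESeq2 1, against 7.06% of all genes, and 5 had an unadjusted p below 0.05, against 16.7%. These shares are near the background. Their median was -0.14. Pik3r1, the regulatory subunit of PI3 kinase, stood at 15.76, 16.20 and 18.00 TPM in controls 1, 2 and 3 and at 23.82, 26.44 and 22.16 TPM in DST-MNs 1, 2 and 3 (log2 change 0.38, SE 0.11, adjusted p = 0.173), and it was the gene DESeq2 called (adjusted p = 0.0307). Hras was at 0.38 (adjusted p = 0.242).

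Feedback inhibitors of the receptors had values in both directions. Of 18, edgeR called 0, DESeq2 called 3, against 7.06% of all genes, and 6 had an unadjusted p below 0.05, against 16.7%. Of these 6, 1 was higher, against 9.80% of all genes, and 5 were lower, against 6.88%. The median was -0.20. As the list was chosen with earlier results of these data known, these shares are a description only. Errfi1, an inducible inhibitor that binds the kinase of the EGF receptor, stood at 129, 244 and 191 TPM in controls 1, 2 and 3 and at 72.2, 99.0 and 96.2 TPM in DST-MNs 1, 2 and 3. All treated wounds lay below all controls (log2 change -1.21, SE 0.26, adjusted p = 0.113, edgeR; 0.000156, DESeq2). Spry4, a Sprouty inhibitor of the RAS pathway, stood at 6.59, 11.63 and 8.61 TPM in controls and at 5.15, 5.46 and 4.16 TPM after treatment (-1.01, SE 0.22, adjusted p = 0.112, edgeR; 0.00298, DESeq2). Lrig1, a membrane protein that lowers the level of ERBB receptors and marks epidermal stem cells, went the other way. It stood at 6.93, 5.98 and 6.10 TPM in controls 1, 2 and 3 and at 18.16, 11.95 and 12.72 TPM in DST-MNs 1, 2 and 3 (1.04, SE 0.19, adjusted p = 0.0759, edgeR; 0.000594, DESeq2). The 8 sebaceous gland markers summed to 31.6 to 55.1 TPM in controls, against 309 to 364 TPM in treated wounds, with 4 of them at 0 in control 2. Of these 8 markers, 2 passed with edgeR, against 0.776% of all genes, and 7 had an unadjusted p below 0.05, against 16.7%. Their part in the Lrig1 values, and that of the basal and pan-epithelial markers given above, was not tested. With 1 library left out, the adjusted p of edgeR ran from 0.0451 to 0.316 for Errfi1 and from 0.0471 to 0.286 for Spry4, the lowest without control 1, and from 0.0637 to 0.274 for Lrig1.

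Transcripts that EGF receptor signalling can induce, beside the 3 members on that list, had negative changes in 9 of 13 cases. Many of them respond to other signals and to handling as well. Of 13, edgeR called 0, DESeq2 called 5, all lower, and 7 had an unadjusted p below 0.05, all lower, against 6.88% of all genes at that level and 2.72% with DESeq2. The median log2 change was -0.72, against 0.0044 over all genes. Because this list was chosen with earlier results of these data known, its counts are a description and no independent test. Ier3, an immediate early gene, stood at 115, 160 and 76.9 TPM in controls 1, 2 and 3 and at 45.8, 45.9 and 48.2 TPM in DST-MNs 1, 2 and 3 (-1.49, SE 0.28, adjusted p = 0.0823). With 1 library left out its adjusted p ran from 0.0366, without control 3, to 0.205. Plaur, the urokinase receptor of migrating cells, was at 72.3, 110 and 75.8 TPM in controls and at 43.7, 52.6 and 54.9 TPM after treatment (-0.92, SE 0.21, adjusted p = 0.131), and Fos at -1.29 (SE 0.30, adjusted p = 0.131). For Errfi1, Spry4, Ier3, Plaur and Fos, as for Hbegf, control 2 was the highest library.

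**Figure D4:**
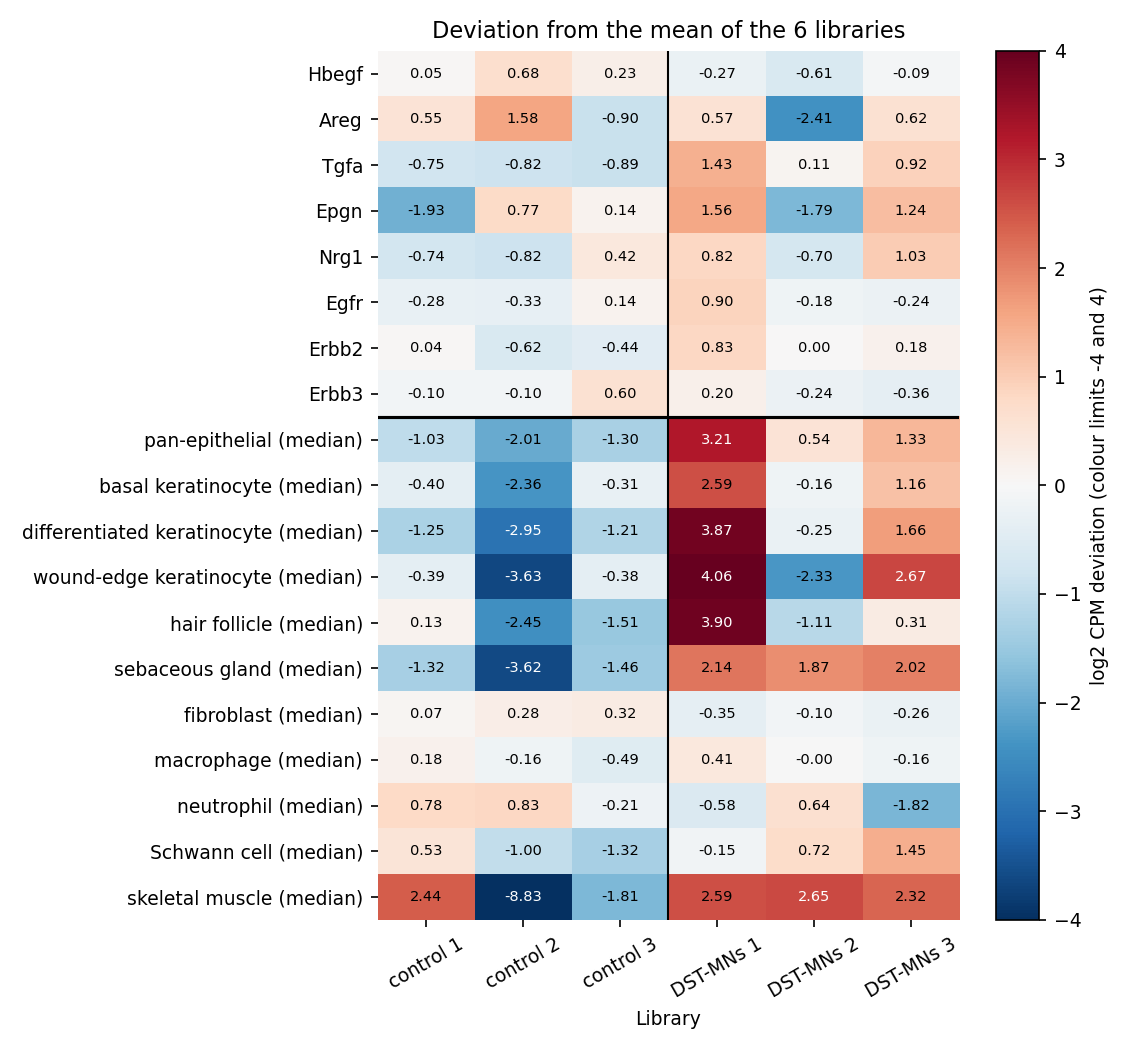
Deviation of log2 CPM from the mean of the 6 libraries, for the 8 members tested and, below the line, the median over the tested markers of 11 cell types, with colour limits of -4 and 4. Tgfa, Epgn, Egfr and Erbb2 are highest in DST-MNs 1, the library with the highest epithelial medians, while Hbegf and Areg are highest in control 2 and lowest in DST-MNs 2.

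Among themselves the members fell into different orders of libraries. Of the 8 tested, Tgfa, Epgn, Egfr and Erbb2 were highest in DST-MNs 1 and Nrg1 in DST-MNs 3. Hbegf and Areg were highest in control 2 and lowest in DST-MNs 2. The closest pair was Egfr and Erbb2, with a root mean square difference of 0.35 between their log2 CPM after each was centred on its mean over the 6 libraries, and the most distant was Areg and Tgfa, at 1.56. By the same measure, the genes most like Tgfa among 12503 were Ndnf (0.16), a secreted protein gene, S1pr5 (0.17), a receptor of sphingosine 1-phosphate, and Apoc1 (0.18), an apolipoprotein gene. Those most like Epgn were Crabp1 (0.39), Serpinb2 (0.77) and Zfp185 (0.85). Areg had no gene nearer than Rgs1 (0.83), followed by Pcdhga12 (0.84) and Cpne1 (0.85). Likeness over 6 libraries is a description and rests on few samples.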

How the data were processed

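Per the labels' protocols, TRIzol was used to extract RNA of 6 wound samples, and a DNBSEQ-T7 read both ends of each fragment. The authors deposited 1 table with 4 values per library. The deposited estimated counts are unscaled, per the file headers, and were rounded here. The TPM and FPKM values are scaled by gene length and library, per the file headers. The normalised counts deposited by the authors are a signal, counts divided by 1 factor per library. FPKM and normalised counts were not tested. Per the submitters' processing notes the build was mRatBN7.2. An aligner or counter is not given in the sources used here. How reads of similar genes were divided is not given.

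Genes passing filterByExpr (minimum count 10) were scaled with TMM and tested with edgeR 4.0.16 (glmQLFit, glmQLFTest) in R 4.3.3. P-values were Benjamini-Hochberg adjusted over all 14427 genes, with a threshold of 0.05. Standard errors are the log2 change divided by the square root of F. A prior count of 2 was added for log2 CPM. The common biological coefficient of variation was 30.2%. Totals of 12545206 to 13818548 counts set the depth. Floors are 3 counts over a group.

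Alternatives were other scalings and filters, DESeq2 1.42.0, limma 3.58.1 (voom, and a trend test on log2(TPM + 1) at a mean TPM of at least 1), a replicate block and each library left out. The members and lists were chosen with earlier results of these data known. Named were all members, the other family genes, from each pathway list the genes past the threshold and the 3 with the smallest p, and the 3 genes most like each member that ranged over more than 2 in log2 CPM, taken from genes with a proper symbol and a mean log2 CPM not below 1. Of 175 list entries, 171 matched by symbol and 2 through RefSeq synonyms. Same-numbered libraries were not shown to be pairs. A gene that the rule would name is not reported here.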

Additional observations from a re-analysis of the deposited data

How the results depend on the processing

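The count of all genes called was 112. It was 38 with at least 10 counts in every library, 1018 with DESeq2's Wald test, and 14 to 402 with 1 library left out. The count of members called was 0, or 1 with DESeq2's Wald test (Tgfa), and 0 to 0 with 1 library left out. The count of pathway genes called was 0, or 9 with DESeq2's Wald test, and 0 to 2 with 1 library left out, where Errfi1 and Spry4 passed without control 1 and Ier3 without control 3. Of 119 member values under the alternatives, 116 kept their direction and side of the threshold. With 1 library left out, Areg ran from -1.13 to 0.10, the latter without control 2, and Egfr from -0.072, without DST-MNs 1, to 0.61. The cause of these shifts was not tested. Total counts in place of TMM, and TPM, moved the median log2 change of all genes to 0.12, and no member turned direction under a scaling. With the replicate number as a block, 123 genes, 0 members and 0 pathway genes were called. Correlations of same-numbered libraries' deviations were -0.02, 0.10 and 0.11, and control 1 was nearest to DST-MNs 2, so the numbers were not taken as pairs. Depth limits Ereg and Btc, which had at most 6 counts in a library, and Areg in DST-MNs 2. Areg could not be tested at 10 counts in every library.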
